A study of Mus musculus with 39 samples.

Results

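The comparison described here set parathyroid glands of knockout mice collected at zeitgeber time (ZT) 8 against knockout glands collected 12 h away in the cycle, at ZT20, across all genes. Zeitgeber time counts hours through the daily light cycle, with ZT0 at lights on by convention. The libraries were taken by sample title, 3 at ZT8 and 4 at ZT20, which are 7 of the 39 in the series. RNA sequencing of the whole series covered 18 knockout (KO) and 21 control (WT) libraries over 6 times of day. Each library was made from total RNA of glands pooled from 2 male mice aged 11 weeks, so the spread between libraries is a spread between such pools. All mice, controls included, were Bmal1 flox/flox, with loxP sites around exon 8 of Bmal1 (gene symbol Arntl; floxed strain B6.129S4(Cg)-Arntltm1Weit/J). Knockouts also carried PTHcre, a Cre recombinase under the human parathyroid hormone promoter (strain 129;FVB-Tg(PTH-cre)4167Slib/J). Controls were littermates without Cre, with 2 libraries at ZT8 and 4 at ZT20. Cre follows the hormone promoter, so other cells in a gland, such as vessel, connective tissue or blood cells, are not meant to be recombined. The labels do not say how many cells kept an intact Bmal1.

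In the mammalian clock, BMAL1 pairs with CLOCK or NPAS2 and binds E-boxes in the genes of its own inhibitors, the PER and CRY proteins. That pair drives Nr1d1 and Nr1d2, which encode the REV-ERB repressors, and these compete with the ROR activators at ROR elements, where Arntl, Cry1 and Nfil3 can be repressed. Another arm runs through D-boxes, bound by the activators DBP, TEF and HLF and the repressor NFIL3. Glands in a living animal also receive daily signals from outside, such as feeding, hormones and body temperature, and some transcripts follow these in tissues without a working clock. The parathyroid gland senses blood calcium through the receptor encoded by Casr and secretes parathyroid hormone, the product of Pth.

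Of 18661 genes tested, 2 rose at ZT8 in knockout glands and 0 fell. They were Nr1d1, the gene of REV-ERB alpha, and Rbm3, a cold-inducible RNA-binding protein gene. The next genes by p in the upward direction were Eci2, an enzyme gene of fatty acid oxidation, Dbp and Nr1d2, and these did not pass the test. In control glands 12 genes passed between the same times, and the change of 2 of these, Cry1 among them, differed from that in knockout glands.

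The promoter windows of Nr1d1, which changed most among the genes that passed, and of Cry1, whose change differed between genotypes, are printed for the clock elements they hold. Cry1 was added because of that difference. RefSeq entries on GRCm38.p6 (the build also called mm10) were found for 2 of 3 genes looked up. Each window runs from 250 bases before to 50 bases after the transcript start. The Nr1d1 window lies on the minus strand at chr11:98775328-98775627 and the Cry1 window on the minus strand at chr10:85185005-85185304. Capitals mark an E-box, CACGTG.
Nr1d1: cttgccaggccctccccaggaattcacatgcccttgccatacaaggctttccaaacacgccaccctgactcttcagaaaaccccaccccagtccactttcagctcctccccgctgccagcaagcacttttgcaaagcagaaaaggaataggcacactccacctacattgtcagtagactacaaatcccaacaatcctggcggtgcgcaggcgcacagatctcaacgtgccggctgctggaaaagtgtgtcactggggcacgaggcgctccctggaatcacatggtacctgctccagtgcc
Cry1: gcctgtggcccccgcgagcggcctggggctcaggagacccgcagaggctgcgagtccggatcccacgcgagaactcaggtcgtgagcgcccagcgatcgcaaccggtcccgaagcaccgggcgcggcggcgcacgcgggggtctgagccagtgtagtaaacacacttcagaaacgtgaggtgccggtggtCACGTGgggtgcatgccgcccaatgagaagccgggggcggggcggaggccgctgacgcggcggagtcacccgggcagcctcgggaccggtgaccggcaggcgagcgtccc
The Cry1 window held 1 E-box, which starts at position -60 relative to the transcript start. Neither window held the other motifs searched on both strands, which were a D-box (TTATGNAA), a ROR element (TAGGTCA), a cAMP element (TGACGTCA), a heat shock element (GAANNTTC) and a glucocorticoid element. Among 32817 promoter windows of this length, 7.15% held the E-box, 3.39% the D-box, 2.61% the ROR element, 1.79% the cAMP element, 7.86% the heat shock element and 0.475% the glucocorticoid element. Motifs outside these windows were not searched.

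The 7 libraries held 46638709 to 68938704 counts and 17964 to 20184 detected genes. They carried the defining transcripts of the parathyroid. Pth took 8.47 to 12.8% of counts at ZT8 and 6.93 to 13.66% at ZT20, and the granule protein gene Chga took 9.02 to 11.2% and 9.25 to 13.6%. Casr lay at 2692 to 3138 CPM (counts scaled to a common library size, corrected for composition) at ZT8 and 2429 to 3663 CPM at ZT20. Gcm2, the transcription factor gene that specifies the gland, lay at 341.5 to 384.3 and 314.9 to 466.7 CPM.

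Some libraries stood apart in the tissue collected with the gland, as the plot of marker scores shows. The summed level of 12 thyroid follicle markers was 3037 to 12310 CPM at ZT8 and 11.65 to 16470 CPM at ZT20, where replicate 4 was lowest. The summed level of 15 lymphoid markers, among them Cd3e and Rag1, was 8.96 to 23.5 CPM at ZT8 and 22.8 to 602.4 CPM at ZT20, where replicate 2 was highest. All 15 lymphoid markers and all 5 thymic epithelium markers had log2 fold changes below 0, though 0 passed the test. So did all 8 macrophage, all 6 fibroblast and all 4 cartilage markers, while all 7 fat, all 3 brown fat and all 5 blood markers tested lay above 0. Some of these directions turned when a library was left out. Without ZT8 replicate 3, all 7 fat markers lay below 0 (median -0.71). Without ZT8 replicate 1, 4 of 5 blood markers lay below 0 (median -0.047). Without ZT20 replicate 2, 4 of 5 thymic epithelium markers lay above 0 (median 0.51). ZT8 replicate 3 had the highest fat marker score of the 39 libraries, 5.96 (mean log2 CPM of 7 genes), and ZT20 replicate 2 the next of the 7, 5.11. Over all 15 lists of other tissues and cells, 0 markers passed and none was at 0 in all 7 libraries. In bulk RNA, fewer cells of a type and less RNA per cell cannot be told apart.

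**Figure D1:**
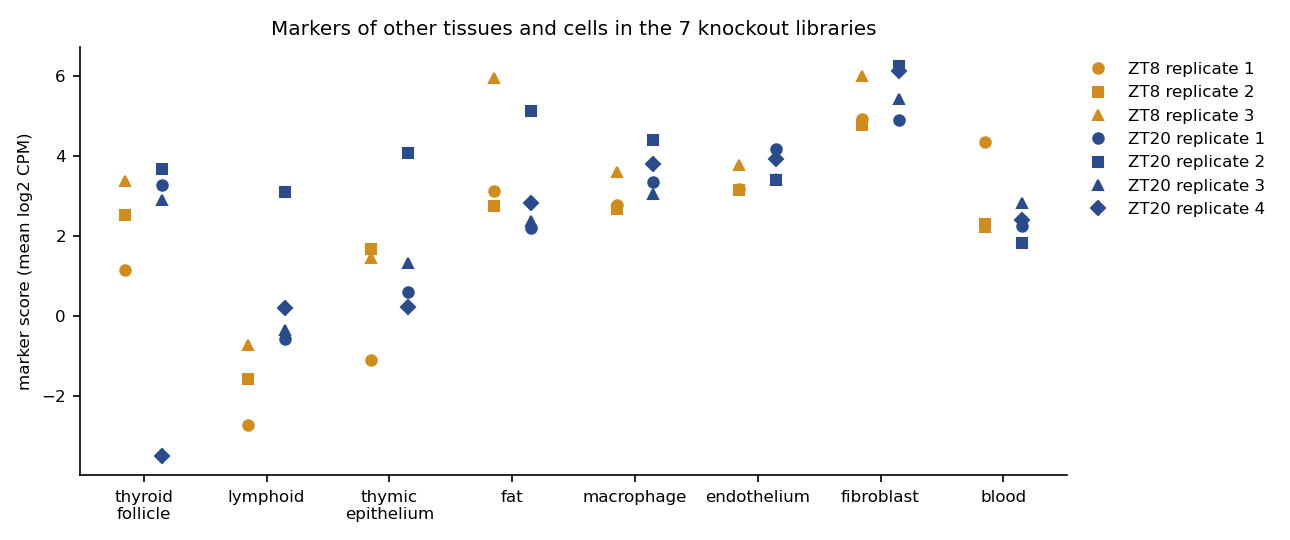
Marker scores (mean log2 CPM of each list) of 8 other tissues or cell types in the 3 ZT8 and 4 ZT20 knockout libraries, 1 point per library. ZT20 replicate 2 is highest for lymphoid and thymic epithelium markers, ZT20 replicate 4 is lowest for thyroid follicle markers, and ZT8 replicate 3 is highest for fat markers.

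The targeted gene, Arntl (chromosome 7, 113178471 to 113314126, mm10), was read in every knockout library. It lay at 11.5, 13.0 and 11.6 CPM at ZT8 and at 16.4, 20.1, 17.5 and 23.6 CPM at ZT20. The ZT8 libraries were all below the ZT20 libraries. The log2 fold change of ZT8 over ZT20 was -0.69 ± 0.29 (SE; adjusted p = 0.900) and did not pass. In control glands it was -0.99 ± 0.34 (adjusted p = 0.486), between means of 12.2 and 24.2 CPM. Counts are summed over the gene, exons outside the deleted part included, and cells without Cre add to them, so this level does not check the genotype.

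Nr1d1 (chromosome 11, 98767932 to 98775377, mm10) was the gene of smallest p. It lay at 14.1, 12.8 and 21.4 CPM in the ZT8 knockout libraries and at 5.51, 4.82, 4.77 and 4.51 CPM in those of ZT20. All ZT8 libraries were above all ZT20 libraries, and the ZT20 values were close together. The means were 16.1 ± 4.66 (SD, n = 3) and 4.90 ± 0.428 CPM (SD, n = 4), a 3.28-fold rise (log2 fold change 1.71 ± 0.24, SE; adjusted p = 0.00113 by edgeR's quasi-likelihood test over all genes). The 2 genes past the threshold were 0.0107% of those tested. Nr1d1 missed the threshold without ZT8 replicate 3, its highest library (adjusted p = 0.0707), and in a fit of the 7 libraries alone (adjusted p = 0.0567), with log2 fold changes of 1.44 and 1.71. With scores of thyroid, lymphoid, muscle and fat markers as covariates it was 1.49 (adjusted p = 0.0126).

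Thra, the thyroid hormone receptor alpha gene, lies on the opposite strand and overlaps 263 of the 3077 exonic bases of Nr1d1, or 8.55%. The library kit keeps strand, but whether the counting used it is not given in the sources used here. Thra lay at 29.5, 29.6 and 28.2 CPM at ZT8 and at 27.2, 24.1, 22.0 and 26.6 CPM at ZT20, a log2 fold change of 0.22 ± 0.10 (adjusted p = 0.900) that did not pass. The groups did not overlap, by a narrow margin. In control glands the change was 0.47 ± 0.11 (adjusted p = 0.124, and 0.0256 with DESeq2). Whether reads of Nr1d1 and Thra were shared was not tested. Thra was looked up after the values of Nr1d1 were seen.

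Rbm3 (chromosome X, 8138975 to 8145880, mm10) encodes an RNA-binding protein whose mRNA is known to rise as body temperature falls. Its level was 124.5, 106.8 and 118.9 CPM at ZT8 and 56.1, 63.8, 45.5 and 44.6 CPM at ZT20. The groups did not overlap, and the lowest ZT8 library was far above the highest ZT20 library. The means were 116.7 ± 9.09 (SD, n = 3) and 52.5 ± 9.17 CPM (SD, n = 4), a 2.22-fold rise (1.15 ± 0.18; adjusted p = 0.00568). It missed the threshold without ZT8 replicate 1 (adjusted p = 0.0830), without ZT8 replicate 3 (0.0736), without ZT20 replicate 4 (0.0924) and in the fit of the 7 libraries alone (0.0567), with log2 fold changes of 1.07 to 1.15. With the 4 tissue scores as covariates it was 1.15 (adjusted p = 0.0483).

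Cirbp, the other gene of the cold-inducible list and a close relative of Rbm3, lay at 71.9, 75.6 and 114 CPM at ZT8 and at 82.3, 50.9, 48.9 and 48.3 CPM at ZT20. ZT20 replicate 1 reached into the ZT8 range. Its log2 fold change, 0.60 ± 0.24 (adjusted p = 0.900), did not pass. In control glands Rbm3 averaged 79.1 CPM at ZT8 and 54.6 CPM at ZT20 (0.54 ± 0.21; adjusted p = 0.547), and its change differed between genotypes by 0.61 ± 0.28 (adjusted p = 0.752), which did not pass.

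**Figure D2:**
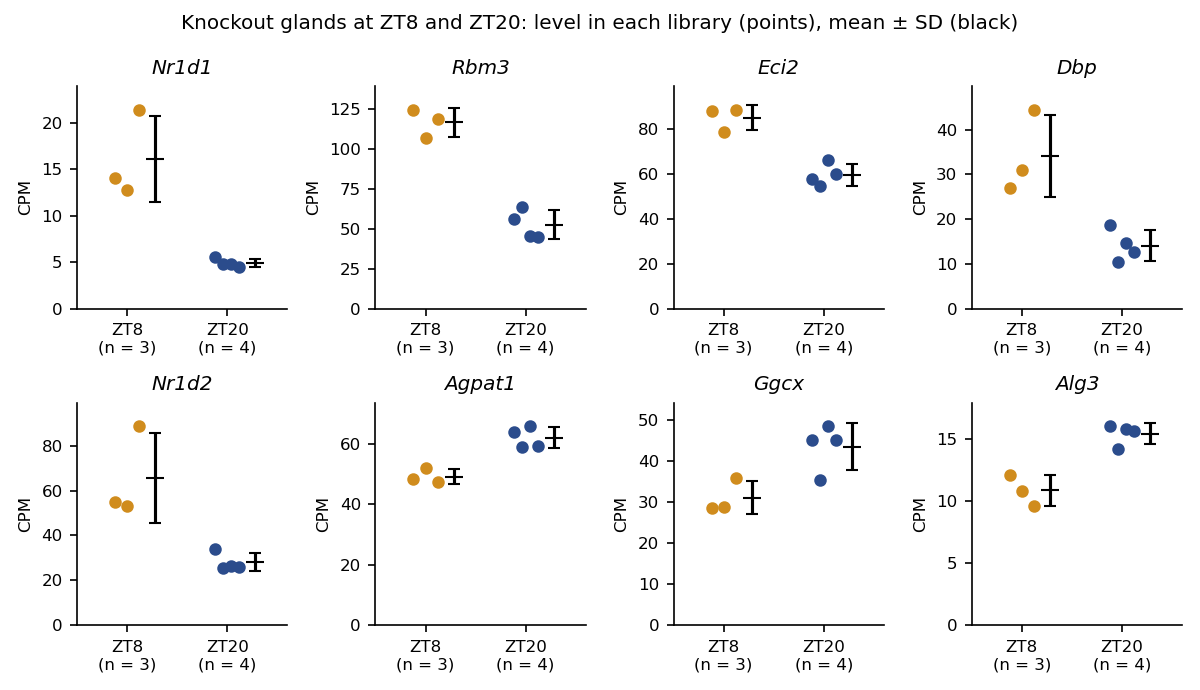
Level (CPM) of 8 genes in each knockout library at ZT8 (n = 3) and ZT20 (n = 4), with the mean and SD in black. Nr1d1 and Rbm3 passed the test. The other 6 did not, though the libraries of the groups do not overlap for 5 of them; for Ggcx one ZT8 library is above the lowest ZT20 library.

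Dbp, the D-box activator gene, lay at 26.8, 31.1 and 44.4 CPM at ZT8 and at 18.6, 10.4, 14.6 and 12.7 CPM at ZT20. The groups did not overlap, and the log2 fold change was 1.28 ± 0.26 (adjusted p = 0.143). Nr1d2, the gene of REV-ERB beta, lay at 55.0, 53.0 and 88.7 CPM at ZT8 and at 34.0, 25.6, 26.4 and 25.9 CPM at ZT20 (1.23 ± 0.28; adjusted p = 0.427). For Nr1d1, Dbp and Nr1d2 alike, ZT8 replicate 3, the library with the highest fat score, was the highest. It was the lowest ZT8 library for Npas2 (8.53 CPM, against 14.7 and 15.4) and Cry1 (57.7 CPM, against 83.2 and 86.5). The control means at ZT8 were lower still, 1.24 and 15.2 CPM. Nfil3 and Arntl2 also had lower control means, but this library was not the lowest for them (4.82 and 8.44 CPM). What set it apart was not tested. DESeq2 called Dbp (adjusted p = 0.00136) and Nr1d2 (adjusted p = 0.00568) as well, and edgeR called neither in any other fit tried.

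The remaining clock genes did not pass in knockout glands. Per1, Per2 and Per3, which encode repressors of the BMAL1 pair, had log2 fold changes of 0.20 ± 0.29, -0.29 ± 0.27 and 0.40 ± 0.23. Cry1, another such repressor, lay at 83.2, 86.5 and 57.7 CPM at ZT8 and at 86.1, 79.0, 89.7 and 69.1 CPM at ZT20 (-0.10 ± 0.12; adjusted p = 0.931). The 2 groups of Cry1 overlapped over most of their range. Npas2, which can take the place of CLOCK, had a change of 0.08 ± 0.40 and Clock itself 0.07 ± 0.10. Nfil3, the D-box repressor, had a change of -0.66 ± 0.29, and Bhlhe40, a repressor at E-boxes, one of -0.12 ± 0.25.

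Of the 21 clock genes tested, 1 rose and 0 fell. Without adjustment, 3 lay higher and 3 lower at an unadjusted p under 0.05, where 2.27% and 2.71% of all genes did. The groups did not overlap for 4 genes higher at ZT8 (Nr1d1, Nr1d2, Dbp and Tef) and for 2 lower, Arntl among them, where 2.95% and 2.59% of all genes were apart in that direction, 5.55% in all. Tef, the relative of Dbp, moved by only 0.21 ± 0.15. Of 7 genes of kinases and ubiquitin ligases that set the stability of PER and CRY, 0 passed and 0 had an unadjusted p under 0.05.

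Control glands at the same times show what the knockout libraries were set against. There 12 genes passed, 0.0643% of those tested, and 8 of them were higher at ZT8. At an unadjusted p under 0.05 the share was 7.1%, and the libraries of 16.4% of genes did not overlap there, with only 2 at ZT8. All 12 had smaller fold changes in knockout glands, 10 had the same sign, 1 passed there (Nr1d1) and 6 had an unadjusted p under 0.05. Of all genes, 0.0107% passed in knockout glands and 4.98% had an unadjusted p under 0.05 there. The absolute log2 fold changes of the 12 had a median of 2.13 in control and 0.30 in knockout glands. These genes were chosen for their change in control glands, so a smaller value in the other genotype is no test. Among the 21 clock genes, 18 had a smaller absolute change in knockout glands, where 55.5% of all genes did, and the median absolute change was 0.21 against 0.89 in control glands. Over all genes the median absolute change was 0.16 in knockout and 0.19 in control glands.

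**Figure D3:**
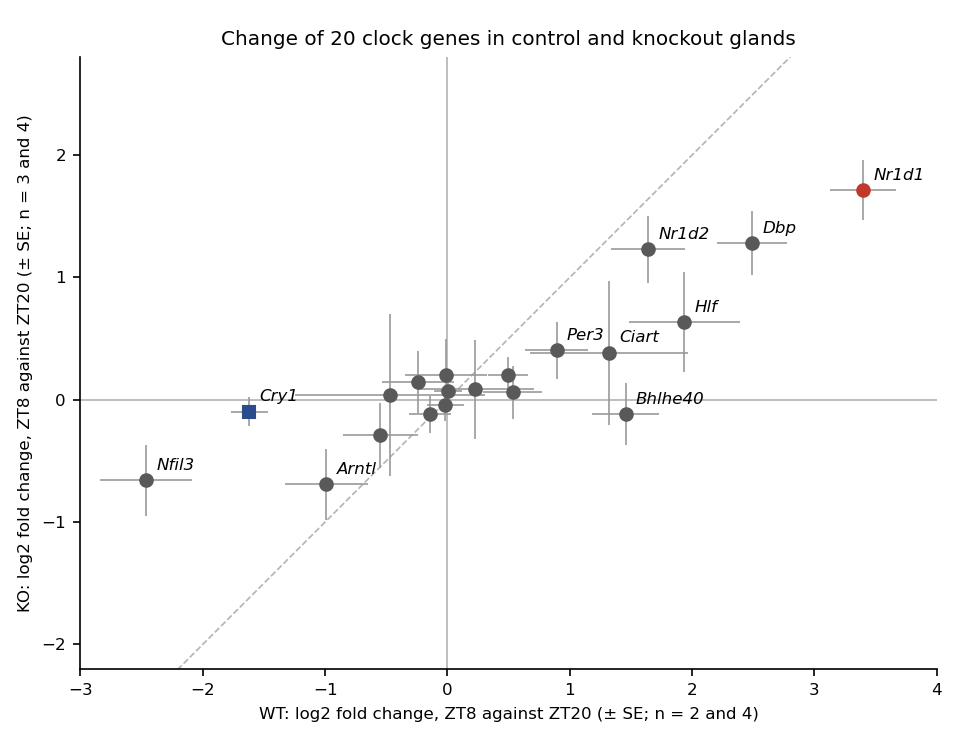
Log2 fold change of ZT8 over ZT20 for 20 clock genes in control (horizontal axis; n = 2 and 4) and knockout glands (vertical axis; n = 3 and 4), with SE bars, and a dashed line where both would be equal. Red marks Nr1d1, which passed in knockout glands at 1.71, and a blue square marks Cry1, whose difference between genotypes passed; 17 of the 20 have the smaller absolute change in knockout glands.

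The difference between genotypes in the change from ZT20 to ZT8 passed for 2 genes, 0.0107% of those tested, and 6.5% had an unadjusted p under 0.05. In control glands Cry1 lay at 15.7 and 14.7 CPM at ZT8 and at 48.5, 46.0, 44.8 and 47.1 CPM at ZT20, with no overlap. Its control log2 fold change of -1.62 ± 0.15 and knockout value of -0.10 ± 0.12 differed by 1.52 ± 0.19 (adjusted p = 3.77e-05). Cry1 was therefore low at ZT8 in control glands and near its ZT20 level at ZT8 in knockout glands. Its difference passed in 10 of 10 alternatives and in 13 of 13 fits that left out a library.

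Other differences between genotypes did not pass edgeR's test, some of them large. Nr1d1 averaged 38.8 CPM at ZT8 and 3.68 CPM at ZT20 in control glands (3.40 ± 0.27; adjusted p = 1.39e-09), and the knockout change was smaller by 1.68 ± 0.37 (adjusted p = 0.308). That difference passed with DESeq2 (adjusted p = 0.0142) and with the 4 tissue scores as covariates (adjusted p = 0.0439). Nfil3 averaged 0.759 and 4.18 CPM in control glands (-2.46 ± 0.38; adjusted p = 8.92e-04), a difference of 1.80 ± 0.45 from the knockout change (adjusted p = 0.527, and 0.0378 with DESeq2). Like Cry1, Nfil3 was low at ZT8 in control glands. For Bhlhe40, 15.6 and 5.70 CPM in control glands, the difference was -1.58 ± 0.38 (adjusted p = 0.503). Outside the clock, the genes that passed in control glands included Slc5a3, a myo-inositol transporter gene, at means of 106.7 and 25.2 CPM there. In knockout glands it lay at 25.9, 31.0 and 40.7 CPM at ZT8 and at 32.6, 38.6, 37.6 and 26.2 CPM at ZT20 (-0.05 ± 0.33). Pmvk, a gene of the mevalonate pathway, averaged 17.5 and 29.3 CPM in control glands and 23.5 and 23.6 CPM in knockout glands. The differences between genotypes of Slc5a3 (-2.13 ± 0.50; adjusted p = 0.503) and Pmvk (0.74 ± 0.16; adjusted p = 0.308) passed with DESeq2 (adjusted p = 0.0127 and 0.0163).

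The 6 times of day place these 2 in the daily course of the knockout glands. Nr1d1 averaged 5.68 ± 0.322 CPM at the start of the cycle, ZT0 (SD, n = 3), and 8.94 ± 2.94 CPM at ZT4 (n = 3). It reached 16.1 ± 4.66 CPM at ZT8 (n = 3) and 13.4 ± 2.44 CPM at ZT12 (n = 2), and lay at 4.98 ± 1.58 CPM at ZT16 (n = 3) and 4.90 ± 0.428 CPM at ZT20 (n = 4). Rbm3 averaged 74.2 ± 8.52, 84.9 ± 23.1, 116.7 ± 9.09, 90.2 ± 8.59, 39.9 ± 7.04 and 52.5 ± 9.17 CPM at the same times. Both were therefore highest at ZT8 and lowest at ZT16 or ZT20. Dbp and Nr1d2 were highest at ZT12, at 62.9 ± 23.5 and 110.7 ± 33.9 CPM, so the pair of times compared here does not take in their highest mean.

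The other pairs of knockout times 12 h apart share no library with this one. Between ZT0 and ZT12, 3 genes passed (0.0161%), all clock genes and all lower at ZT0, namely Dbp (-2.41 ± 0.31), Nr1d2 (-2.13 ± 0.33) and Per3 (-1.58 ± 0.27). Between ZT4 and ZT16, 6 genes passed (0.0322%). Rbm3 was among them and was higher at ZT4 (1.09 ± 0.20; adjusted p = 0.0247), as were Klf11, a transcription factor gene, Paxx, a DNA repair gene, and Acot1 and Acot2, genes of acyl-CoA thioesterases. Per3 was lower at ZT4 (-1.38 ± 0.25). Acot1 and Acot2 are near-identical copies, so how the counting shared their reads is uncertain.

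**Figure D4:**
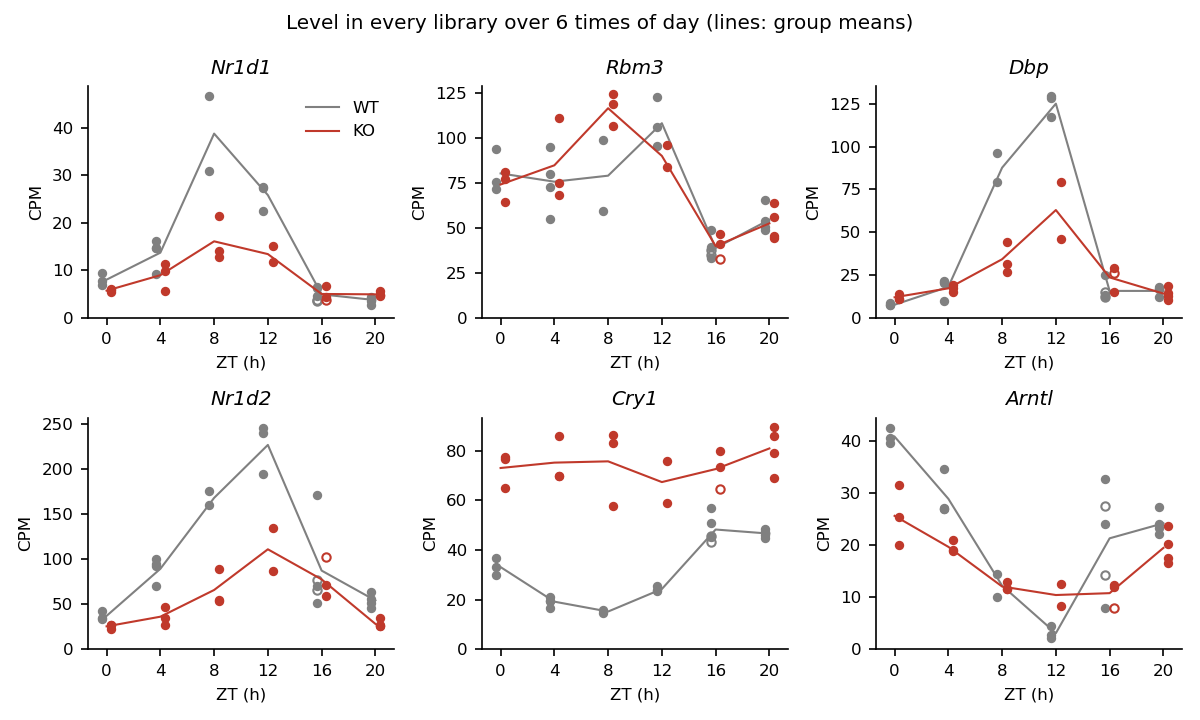
Level (CPM) of 6 genes in every library at 6 times of day in knockout (red) and control (grey) glands; lines join group means, and open circles are 3 libraries titled ZT16 for which another label gives ZT 20. In knockout glands Nr1d1 and Rbm3 are highest at ZT8, Dbp and Nr1d2 at ZT12, and Cry1 stays between 57.7 and 89.7 CPM.

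Genes that lay lower at ZT8 in knockout glands did not pass. Their number was 0 by edgeR, against 505 at an unadjusted p under 0.05 (2.71% of genes). DESeq2 called 11 lower, of which 9 had means under 1 CPM and the others were Agpat1 (adjusted p = 0.00568) and Ggcx (adjusted p = 0.0456). Agpat1, which makes phosphatidic acid for membrane and storage lipids, had the smallest edgeR p in this direction. It lay at 48.2, 51.9 and 47.4 CPM at ZT8 and at 64.1, 59.0, 65.8 and 59.3 CPM at ZT20, without overlap (-0.34 ± 0.08; adjusted p = 0.540). Ggcx, the vitamin K-dependent carboxylase gene, had a change of -0.48 ± 0.12 (adjusted p = 0.819), and Alg3, a mannosyltransferase gene of N-glycan assembly, one of -0.51 ± 0.13 (adjusted p = 0.900). Sphk2, a sphingosine kinase gene, had a change of -0.31 ± 0.09 and shares 539 exonic bases on opposite strands with Dbp, which moved the other way. Atp13a1, an ATPase gene of the endoplasmic reticulum, had a change of -0.28 ± 0.08.

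Among the metabolic lists, fatty acid oxidation had the most genes higher at ZT8 at an unadjusted p under 0.05. Of its 15 tested genes 0 passed, 4 were higher at that level (2 to 7 with one library left out; 2.27% of all genes) and 0 lower, with 14 log2 fold changes above 0 and a median of 0.16, against -0.017 for all genes. The 7 fat markers also lay above 0, though 0 passed, with a median of 0.83 and a summed level of 85.2 to 731.4 CPM at ZT8 and 63.3 to 461.7 CPM at ZT20. Without ZT8 replicate 3 the fat median was -0.71 and that of the oxidation genes 0.13. Cpt1a, which admits fatty acids into mitochondria, lay at 179, 189 and 170 CPM at ZT8 and at 131, 106, 153 and 104 CPM at ZT20. The groups did not overlap (0.54 ± 0.15; adjusted p = 0.900), and the gene passed in control glands (0.81 ± 0.16; adjusted p = 0.0432). Acadl and Acadvl, which encode the dehydrogenases of long and very long chains, had changes of 0.35 ± 0.15 and 0.26 ± 0.10 without overlap. Acadvl shares 42.9% of its exonic bases with Dvl2 on the opposite strand.

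Eci2, which handles unsaturated fatty acids in the same pathway but was not on that list, lay at 88.3, 78.9 and 88.7 CPM at ZT8 and at 58.0, 54.7, 66.3 and 60.2 CPM at ZT20. The ZT8 libraries were all higher, and the change of 0.51 ± 0.10 fell just short of the threshold (adjusted p = 0.0541). It passed in 4 of 11 alternatives, with adjusted p from 5.16e-04 to 0.645. With one library left out it passed in 1 of 7 edgeR fits, with adjusted p from 0.0446 to 0.606. The control change was 0.21 ± 0.11, and the difference between genotypes did not pass (0.30 ± 0.15; adjusted p = 0.762).

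Genes of sterol and fatty acid synthesis lay mostly the other way. Of 18 tested, 0 passed, 6 were lower and 1 higher at an unadjusted p under 0.05 (2.71% and 2.27% of all genes), and the median log2 fold change was -0.20. Srebf1 lay at 87.8, 102 and 108 CPM at ZT8 and at 189, 156, 109 and 110 CPM at ZT20. The groups did not overlap, by a narrow margin, and ZT20 replicates 1 and 2 stood highest. Srebf1 and Srebf2, which encode the transcription factors of lipid and sterol synthesis, had changes of -0.50 ± 0.18 and -0.34 ± 0.13. Without ZT20 replicate 1, 0 of the 18 were lower at an unadjusted p under 0.05, and the median was -0.14. In control glands the median of this list was -0.22.

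Stress and secretory lists had medians below 0. Of 19 heat shock genes, 0 passed and 18 log2 fold changes were below 0 (median -0.24), with 3 lower at an unadjusted p under 0.05, where 2.71% of all genes were. Hspa1b, an inducible HSP70 gene, lay at 18.0, 24.1 and 14.1 CPM at ZT8 and at 19.7, 41.1, 42.5 and 19.9 CPM at ZT20, so the groups overlapped, and it has a near-identical copy, Hspa1a, which may share its reads. Without ZT8 replicate 3 the median of the list was -0.093 and 0 were lower at an unadjusted p under 0.05, and without ZT20 replicate 2 they were -0.19 and 0. Of 21 genes of protein folding in the endoplasmic reticulum, 0 passed, 2 were lower at an unadjusted p under 0.05 (2.71% of all genes), and the median was -0.20. Calr, the chaperone calreticulin, lay at 401, 393 and 373 CPM at ZT8 and at 576, 419, 605 and 530 CPM at ZT20 without overlap (-0.45 ± 0.14; adjusted p = 0.900).

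Of 18 immediate early genes, whose mRNAs rise within minutes of a stimulus, 0 passed, 3 were lower at an unadjusted p under 0.05 (2.71% of all genes), and the median was -0.55. Jun lay at 27.6, 23.3 and 32.3 CPM at ZT8 and at 42.8, 39.9, 36.9 and 37.6 CPM at ZT20 without overlap (-0.50 ± 0.16; adjusted p = 0.900). Of 23 extracellular matrix genes, 0 passed and the median was -0.35. The median of 6 fibroblast markers was -0.37, with a summed level of 201.6 to 478.4 CPM at ZT8 and 230.2 to 574.6 CPM at ZT20. Without ZT8 replicate 3 these medians were -0.89 and -0.91. Col4a1, a basement membrane collagen gene, lay at 173, 218 and 198 CPM at ZT8 and at 313, 245, 267 and 218 CPM at ZT20, where the groups did not overlap, by a narrow margin. Of 23 proliferation genes, 0 passed, 0 had an unadjusted p under 0.05, and the median was -0.70. Bub1b, a spindle checkpoint gene, lay at 2.28, 2.46 and 1.32 CPM at ZT8 and at 2.52, 10.9, 3.12 and 3.45 CPM at ZT20.

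Several of these medians moved with ZT20 replicate 2, the library with the most lymphoid and thymic markers. Without it, the median of proliferation genes was -0.19, of immediate early genes -0.20, of extracellular matrix genes -0.20 and of 18 secretory granule genes -0.067, against -0.34 with it. Of the 18 granule genes, 0 passed and 3 were lower at an unadjusted p under 0.05 (2.71% of all genes). Those 3, Syt7, Syt1 and Snap25, had knockout means of 1.23 CPM or less in each group. Other libraries moved some of these medians as well. The extracellular matrix median was -0.19 without ZT8 replicate 1 and also without ZT8 replicate 2, and the secretory granule median was -0.82 without ZT8 replicate 1, -0.22 without ZT8 replicate 2 or 3 and -0.60 without ZT20 replicate 4. The medians of the folding genes (-0.24), sterol genes (-0.16) and fatty acid oxidation genes (0.14) were closer to those with it. The part of the other tissue in these values was not tested.

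Interferon-stimulated genes lay higher at ZT8 in 14 of 15, with a median of 0.37, though 0 passed and 0 had an unadjusted p under 0.05. This rested on ZT8 replicate 2. Ifit1, an antiviral effector gene, lay at 1.44, 12.9 and 1.84 CPM at ZT8 and at 1.83, 4.07, 1.65 and 1.11 CPM at ZT20. Without that library the median was -0.24, with 12 of 15 below 0.

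**Figure D5:**
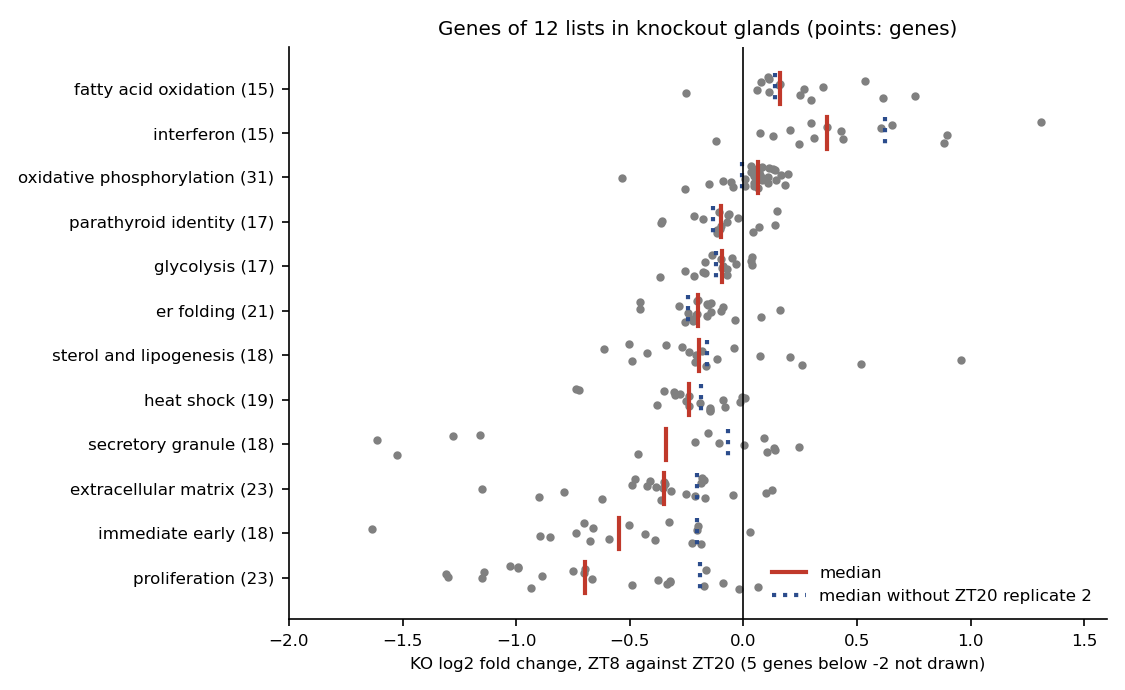
Log2 fold change of ZT8 over ZT20 in knockout glands for the genes of 12 lists (grey points; tested genes in parentheses), with the median of each list in red and the median without ZT20 replicate 2 dotted in blue; 5 genes below -2 are not drawn. Proliferation genes have the lowest median, -0.70, which is -0.19 without that library, and the median of fatty acid oxidation genes stays above 0 at 0.16 and 0.14.

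The gland's own genes did not pass. Of 17 parathyroid identity genes, 0 passed, 0 had an unadjusted p under 0.05, and the median was -0.097. Pth lay at 127411, 78672 and 118588 CPM at ZT8 and at 65434, 86805, 102881 and 135452 CPM at ZT20, with wide overlap (0.15 ± 0.29; adjusted p = 0.953). Casr had a change of -0.11 ± 0.15 and Gcm2 one of -0.06 ± 0.15. Of 16 genes that respond to glucocorticoids, hormones with a strong daily rhythm, 0 passed. Of these, 1 had an unadjusted p under 0.05, where 4.98% of all genes did. That gene, Sgk1, a kinase gene, lay at 148, 102 and 67.7 CPM at ZT8 and at 75.4, 51.1, 66.3 and 64.7 CPM at ZT20. ZT8 replicate 3 fell within the ZT20 range (0.72 ± 0.31; adjusted p = 0.900). Of 31 oxidative phosphorylation genes the median was 0.063, of 17 glycolysis genes -0.092 and of 15 clock output genes -0.072, with 0 that passed in each list. The first was 0.0019 without ZT8 replicate 1 and -0.0049 without ZT20 replicate 2, and the last was 0.018 without ZT8 replicate 3.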

How the data were processed

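The authors deposited raw counts, whole numbers per gene and library. Build mm10 and the tools DESeq2 1.30.1, featureCounts 2.0.1 and STAR 2.7.8a appear in the submitters' processing notes, without their roles; the annotation and strand setting were not given in the sources used here. Even numbers made up 89.6% of counts between 1 and 10, as if each mate of a read pair had been counted, so fragments number about the counts divided by 2. Of 27179 gene IDs, 25275 (98.0% of counts) matched the GRCm38.p6 gene table used for symbols and coordinates.

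The test was that of edgeR 4.0.16 under R 4.3.3 (robust quasi-likelihood fit, TMM, filterByExpr by group) over all 39 libraries as 12 genotype and time groups (27 residual degrees of freedom), with Benjamini-Hochberg adjustment over 18661 genes and a threshold of 0.05. SE was the absolute log2 fold change divided by the square root of F. CPM used TMM library sizes, and marker scores a prior count of 2. The same fit gave the difference between genotypes. Times came from titles; for 3 libraries titled ZT16 another label gives ZT 20.

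Named genes were all clock genes, the genes that passed with those of smallest p up to 5 in each direction (mean of at least 1 CPM), up to 3 of smallest p from each other list, and those whose difference passed. Others (Thra, Pth, Casr, Gcm2, Slc5a3, Pmvk, Acot1, Acot2, Klf11) were chosen after their values were seen. Results of some genes are not reported here. The comparison, its members and the 36 gene lists were chosen with earlier results of these data known. Nothing in the labels says whether pools of a group were collected together. The scripts were tested on simulated data. Alternatives were DESeq2 1.42.0, its size factors, other filters, other sets of libraries, tissue scores or a replicate block as covariates, and each library left out.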

Additional observations from a re-analysis of the deposited data

Results flagged for a closer look

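In the ZT20 knockout group of 4 libraries, 7 values reported here had one library far from the other 3, with the gap to the nearest divided by the range given here. ZT20 replicate 1 stood high for Nr1d2 (0.893) and Cirbp (0.900). ZT20 replicate 2 stood high for Bhlhe40 (0.871), the cell division gene Birc5 (0.941) and the brown fat marker score (0.883). ZT20 replicate 4 stood low for Per1 (0.851) and for the thyroid follicle marker score (0.891). With 89 groups of values tested, chance alone flags about 1 in 20.

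The change from ZT20 to ZT8 differed between genotypes, by a test of the difference itself, for Cry1 (knockout minus control 1.52). For Col4a1 the libraries moved lower at ZT8 in knockout and higher in control glands, without overlap in either, a difference of -0.70 ± 0.23 that did not pass edgeR's test (adjusted p = 0.752). The margin in knockout glands was narrow, and control glands had only 2 libraries at ZT8. Of all genes, 5.55% did not overlap in knockout and 16.4% in control glands.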

How the results depend on the processing

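The 2 calls in knockout glands (929 genes at an unadjusted p under 0.05) became 16 with DESeq2, 5 higher and 11 lower, and 0 in the fit of the 7 libraries alone, 0 of them higher. With one library left out they numbered 0 to 3, all higher, namely 0 without ZT8 replicate 3 and 1 without ZT8 replicate 1 or ZT20 replicate 4. DESeq2 size factors, a filter at a mean of 1 CPM and the unclear libraries placed at ZT20 gave 3 each, and the other alternatives gave 2. The 2 differences between genotypes became 14 with DESeq2, 5 in the fit of the 13 libraries concerned and 4 with tissue scores as covariates, and 2 to 3 with one library left out. DESeq2 gave 64 genes for 12 in control glands, 15 for 3 between ZT0 and ZT12 and 12 for 6 between ZT4 and ZT16. Why the tools differ was not tested. Without the 12 libraries richest in lymphoid markers, chosen after seeing the data, Nr1d1 (1.71) and Rbm3 (1.26) passed. Only 1 of these 12, at ZT20, was among the 7 compared, so this fit is close to leaving out that library. The 12 also held the 2 knockout libraries at ZT12 and 1 control library at ZT8.

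Replicate numbers are shared between the groups, but libraries of the same number did not vary together (correlations 0.152, 0.0583 and -0.109), and a replicate block gave 2 calls.

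Some changes that did not pass turned sign, most of them small, though that of Ifit1 was 1.31 in the main fit. With tissue scores these were Clock (-0.0034), Rorb (-0.19), Bhlhe41 (-0.12) and Ciart (-0.042). With the block it was Rorb (-0.0445), and with the unclear libraries at ZT20 Arntl2 (-0.016) and Rorb (-0.12). Without the lymphoid-rich libraries they were Arntl2 (-0.00020) and Bhlhe40 (0.135). With one library left out, ranges were -0.065 to 0.30 for Npas2, -0.14 to 0.043 for Rora, -0.16 to 0.16 for Rorb, -0.024 to 0.47 for Per1, -0.026 to 0.33 for Arntl2, -0.20 to 0.053 for Cry1, -0.13 to 0.21 for Bhlhe41, -0.35 to 0.13 for Bhlhe40 and -0.41 to 1.82 for Ifit1. Depth limits the lowest genes, such as Egr3, Syt1 and Snap25, whose knockout values lay under 2 CPM.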

Other observations

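Of the 6 genes that passed between ZT4 and ZT16 in knockout glands, 1 passed between ZT8 and ZT20 (Rbm3). Acot1 and Klf11 are given as examples of the others, chosen after their values were seen. Acot1 lay at 15.6, 12.0 and 17.6 CPM at ZT8 and at 8.51, 7.68, 14.1 and 9.10 CPM at ZT20 (0.61 ± 0.28; adjusted p = 0.900). Klf11 lay at 13.6, 11.4 and 17.1 CPM at ZT8 and at 11.4, 6.67, 16.5 and 8.85 CPM at ZT20 (0.37 ± 0.21; adjusted p = 0.900). For both, ZT20 replicate 3 was the highest of its group and overlapped with ZT8.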
